A study of Mus musculus with 9 samples.

Results

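The fragments described here end at the mature 3' end of nuclear tRNAs, at the CCA that carries the amino acid. They are the rows of the deposited fragment table listed as type tRF-3a or tRF-3b with no mitochondrial chromosome in their name, 33 of 200 listed fragments. Of these 33, 27 are tRF-3a (12 of 17 nt and 15 of 18 nt) and 6 are tRF-3b, all of 22 nt. The small RNA came from complexes of retinal pigment epithelium, choroid and sclera of C57BL/6 mice: 3 from control mice, 3 from day 3 and 3 from day 7 after laser injury. The lasered mice were 6 to 8 weeks old, and the laser (532 nm, 110 mW, 100 ms) breaks Bruch's membrane, the sheet between pigment epithelium and choroid, which models choroidal neovascularization. The labels give no age of their own for the controls, name no genetic change in any group, and do not tell whether each complex came from its own animal. The p-values therefore measure only how far these libraries spread, which may reflect technical variation. The complex is a mixed tissue, and the table holds no marker genes, so its labelled identity was not checked here; in such bulk samples fewer cells of a type and less RNA per cell cannot be told apart.

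A tRNA 3' fragment arises when the mature tRNA is cut in its T loop, and the short and the long form differ in which side of that loop they start on. Both forms can be held by Argonaute proteins, the carriers of microRNAs. Retroviruses and related mobile elements of the genome prime reverse transcription with the tRNA 3' end, and in mouse cells such fragments have been found to interfere with that step. A 22 nt fragment of a Leu-CAG tRNA is known in human cells for its role in the translation of ribosomal protein mRNAs.

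The sequences below show how the 3 lengths nest in a tRNA. The tRNA from which tRF-54:75-Ala-CGC-1-M2 comes is printed whole, as the deposited alignment gives it, with the 22 nt fragment in capitals. The 22 nt forms are then shown with their base 4 and the CCA in capitals, and the short forms with the CCA in capitals. All are written 5' to 3' with T for U, as in the deposited table.
tRNA-Ala-CGC-1-1: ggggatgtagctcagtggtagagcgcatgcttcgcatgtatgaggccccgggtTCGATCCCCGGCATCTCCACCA
Ala-CGC-1-M2, 22 nt: tcgAtccccggcatctccaCCA
Ala-CGC-1-M4, 18 nt: tccccggcatctccaCCA
Ala-CGC-1-M4, 17 nt: ccccggcatctccaCCA
Ala-AGC-2, 22 nt: tcaAtccccggcacctccaCCA
Gly-CCC-2-M4, 22 nt: tcgAttcccggccaatgcaCCA
Gly-TCC-1, 22 nt: tcgAttcccggccaacgcaCCA
Gly-GCC-4, 22 nt: tcgGttcccggccaatgcaCCA
Val-TAC-1, 22 nt: tcgAgccccagtggaaccaCCA
Cys-GCA-2-M4, 17 nt: tccgggtgccccctCCA
Counted back from the terminal A at position 76 of the standard tRNA numbering, the 22 nt forms start at position 55, the 18 nt forms at 59 and the 17 nt forms at 60. Position 58, which carries the methylated base m1A in many tRNAs, is therefore base 4 of a 22 nt form and lies just before the first base of an 18 nt form. Base 4 is A in 5 of the 6 fragments of 22 nt and G in Gly-GCC-4. RNA was demethylated at m1A before the libraries were made, per the labels' protocols, and how complete that was in each library was not tested.

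The deposited alignments placed every one of the 33 fragments at the 3' end of its tRNA, and all 33 end in CCA. Of the 33, 7 match 1 tRNA gene and 26 match more than 1, up to 7 genes. For 19 fragments the matching genes have more than 1 anticodon, and for 3 they carry more than 1 amino acid: both lengths named Gly-ACC-1-M6, which also match Val tRNAs, and the 17 nt fragment named Phe-GAA-1-M3, which also matches a Ser tRNA. Their counts belong to that group of tRNAs and cannot be split between genes. The 33 fragments fall into 18 families that share their last 17 nt, and 10 of these families hold both a 17 nt and an 18 nt form. Where a 22 nt form and shorter forms share an end, which is so in 3 families, the 22 nt form matches fewer genes than the shorter forms. The lengths then come from overlapping groups of tRNAs.

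Libraries held 1204173 to 2155977 mapped reads, and the 200 listed fragments held 75.7 to 76.03% of them in the controls, 56.0 to 62.1% at day 3 and 75.3 to 78.6% at day 7. The 33 fragments together held 1575 to 4437 counts per library, and a single one 1 to 469 counts, so the least abundant rest on few reads. Levels are given in CPM, counts scaled to the mapped reads of each library. They are compared with edgeR's quasi-likelihood F test across all 200 fragments, with Benjamini-Hochberg adjustment and a threshold of 0.05, and a fragment is said to have risen or fallen only where it passed.

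At day 3, 12 of the 33 fragments were lower than in the controls and 0 were higher. Over all 200 listed fragments 11.5% were lower and 10% higher, together 21.5%. Those that fell match tRNAs for Ala (4 of 5 fragments), Gly (3 of 5), Leu (1 of 5), Gln (1 of 4), Cys, Trp and Phe or Ser (1 of 1 each). Both Pro fragments, both Thr fragments, all 3 Tyr fragments and both Gly-ACC fragments that also match Val did not pass, nor did the single Ser and the single Val fragment. By length, 4 of 12 fragments of 17 nt, 5 of 15 of 18 nt and 3 of 6 of 22 nt fell. The median log2 fold change was -1.12 over the 33 fragments and -0.04 over all 200; it was -0.68 over the 17 and 18 nt forms, -1.50 over the 22 nt forms and 0.01 over the 25 other listed fragments of 16 to 22 nt. In 17 of the 33 fragments every day 3 library lay below every control library in CPM, as did 19.5% of all listed fragments; in 1 of the 33, against 22% of all, every day 3 library lay above. Lower values of 3' fragments were also seen outside the 33. The mitochondrial tRF-3a fragment, chrM.Trp-TCA of 17 nt, gave -1.27 ± 0.45 (SE, edgeR adjusted p = 0.0496). The mitochondrial His-GTG fragments of type tiRNA-3, of 38 to 40 nt, gave -1.82, -1.41 and -1.27, and of these only that of 38 nt passed.

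**Figure D1:**
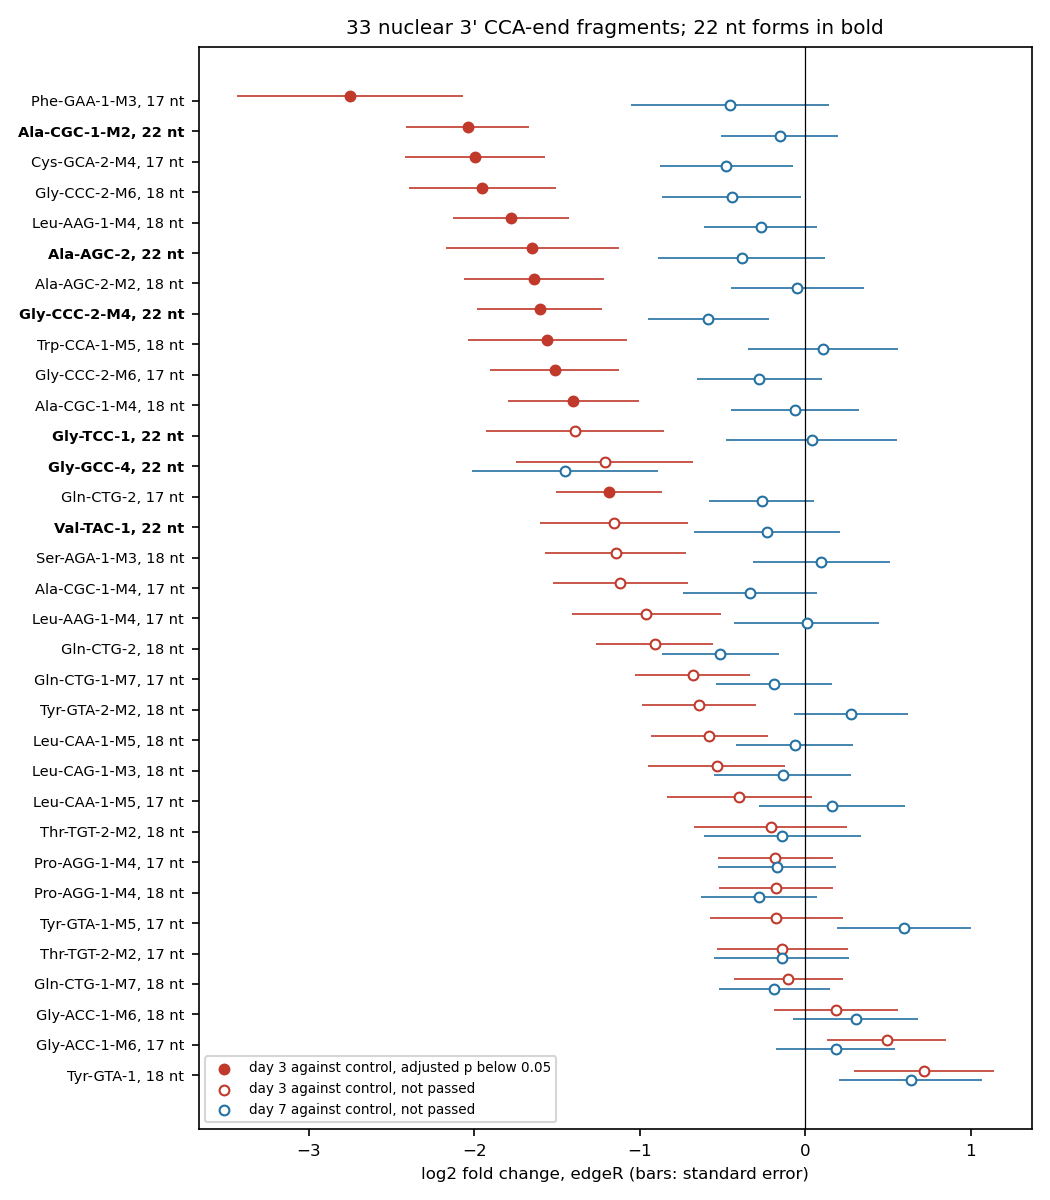
Log2 fold change (edgeR, horizontal axis, bars are the standard error) of each of the 33 fragments at day 3 (red) and at day 7 (blue) against the same 3 controls; filled points passed the threshold and labels in bold are 22 nt forms. At day 3 the values run from -2.75 to 0.72 and 12 are filled, all below 0; at day 7 they run from -1.45 to 0.64 and none is filled.

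The count of 12 leaned on single libraries and on the scale. It was 6 without control replicate 3 and 7 without day 3 replicate 2, and 6 when libraries were scaled to the sum of the listed counts. That scaling moved the median of all 200 fragments from -0.04 to 0.37, and the median of the 33 fragments from -1.12 to -0.71. Relative to all listed fragments the 33 lay 1.08 lower on the log2 scale under either scaling. A change of scale moves every fragment by nearly the same amount. This distance could therefore hardly have differed, and its stability is no separate support. In each of the 6 fits without 1 control or day 3 library, and also when scaled to the listed counts, 5 fragments fell: the 22 nt forms of Ala-CGC-1-M2 and Gly-CCC-2-M4, the 18 nt forms of Leu-AAG-1-M4 and Gly-CCC-2-M6, and the 17 nt form of Cys-GCA-2-M4.

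Alanine was the amino acid with the most fragments that fell, 4 of its 5. The 22 nt form tRF-54:75-Ala-CGC-1-M2 held 71.9, 70.3 and 58.4 CPM in the control libraries, 12.4, 12.6 and 25.6 at day 3 and 78.1, 49.1 and 29.0 at day 7. Its day 3 libraries lay below every control and every day 7 library, and the log2 fold change at day 3 was -2.04 ± 0.37 (SE, edgeR adjusted p = 0.0027). The 18 nt form tRF-58:75-Ala-CGC-1-M4, the most abundant of the 33 in the controls, held 160.2, 166 and 218 CPM there, 55.7, 58 and 98.9 at day 3 and 243, 148 and 65.5 at day 7. Groups did not overlap between control and day 3, while the day 7 libraries spanned both groups. Its log2 fold change at day 3 was -1.40 ± 0.39 (SE, edgeR adjusted p = 0.0142), and it did not pass without control replicate 3, day 3 replicate 1 or day 3 replicate 2. The Ala-AGC-2 forms, which match other alanine tRNAs, went the same way. The 18 nt tRF-58:75-Ala-AGC-2-M2 held 40.9, 41.1 and 44.1 CPM in the controls, with 12.9, 9.35 and 19.5 at day 3 and 59.8, 36.8 and 11 at day 7 (day 3 log2 fold change -1.64 ± 0.42, edgeR adjusted p = 0.0077; not passed without day 3 replicate 2). The 22 nt tRF-54:75-Ala-AGC-2 held 17.2, 16 and 23.7 CPM in the controls, with 2.98, 5.61 and 10.4 at day 3 and 20.8, 11.2 and 6.21 at day 7 (day 3 log2 fold change -1.65 ± 0.52, edgeR adjusted p = 0.0279). It rests on 6, 12 and 17 counts at day 3 and passed in 2 of the 6 fits without 1 library, those without control replicate 2 and without day 3 replicate 3. The fifth alanine fragment, the 17 nt Ala-CGC-1-M4, did not pass (log2 fold change -1.12 ± 0.41, edgeR adjusted p = 0.0505). The CGC and AGC forms differ by T10C in the 18 nt fragments, counted from 1 at the 5' end of the fragment and from CGC to AGC.

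Of the 5 glycine fragments, 4 share the end of Gly-CCC and Gly-GCC tRNAs, in all 3 lengths, and 1 comes from Gly-TCC. The 22 nt tRF-53:74-Gly-CCC-2-M4 held 58.9, 109.7 and 115 CPM in the controls, with 26.3, 21.5 and 47.6 at day 3 and 88.0, 40.7 and 35.2 at day 7. Every day 3 library lay below every control (log2 fold change -1.61 ± 0.38 SE, edgeR adjusted p = 0.00527). The 18 nt tRF-57:74-Gly-CCC-2-M6 held 22.9, 29.7 and 27.4 CPM in the controls, with 7.45, 5.61 and 7.93 at day 3 and 23.3, 19.0 and 7.59 at day 7; the day 3 libraries again lay below all controls (-1.95 ± 0.44, edgeR adjusted p = 0.00427). The 17 nt tRF-58:74-Gly-CCC-2-M6 held 33.5, 33.7 and 44.5 CPM in the controls, with 12.4, 7.95 and 20.1 at day 3 and 39.9, 24.6 and 15.2 at day 7 (-1.52 ± 0.39, edgeR adjusted p = 0.0077; not passed without control replicate 3 or day 3 replicate 2). A form of each of the 3 lengths of this end thus fell, while the 22 nt Gly-GCC-4, which has the same end, did not pass.

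The other glycine fragments of 22 nt did not pass at day 3. tRF-54:75-Gly-TCC-1 differs from Gly-CCC-2-M4 by T16C and held 9.81, 22.3 and 25.0 CPM in the controls, with 4.47, 6.55 and 11.6 at day 3 and 36.5, 10.6 and 6.9 at day 7 (day 3 log2 fold change -1.39 ± 0.54, edgeR adjusted p = 0.059). Control and day 3 overlapped. tRF-53:74-Gly-GCC-4 differs from Gly-CCC-2-M4 by A4G, at standard position 58, and held 11.4, 44.6 and 32.9 CPM in the controls, with 10.9, 6.55 and 22 at day 3 and 9.97, 13.4 and 2.76 at day 7. Its control libraries spread widely and overlapped both other groups. Its log2 fold change was -1.21 ± 0.54 at day 3 (edgeR adjusted p = 0.0909) and -1.45 ± 0.56 at day 7 (edgeR adjusted p = 0.139), the most negative day 7 value of the 33, resting on 12, 24 and 4 counts. Set against the A-bearing form of the same library, Gly-GCC-4 held 19.4, 40.6 and 28.5% of the counts of Gly-CCC-2-M4 in the controls, with 41.5, 30.4 and 46.2% at day 3 and 11.3, 32.9 and 7.84% at day 7, and the groups overlapped. This ratio was chosen after the values were seen and has no test. The last 22 nt form, tRF-55:76-Val-TAC-1 from a valine tRNA, held 18.8, 24 and 17.6 CPM in the controls, with 6.46, 7.48 and 14 at day 3 and 16.6, 12.8 and 13.1 at day 7. Its controls lay above every library of both other groups, yet the test was not passed at day 3 (-1.16 ± 0.45, edgeR adjusted p = 0.059).

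**Figure D2:**
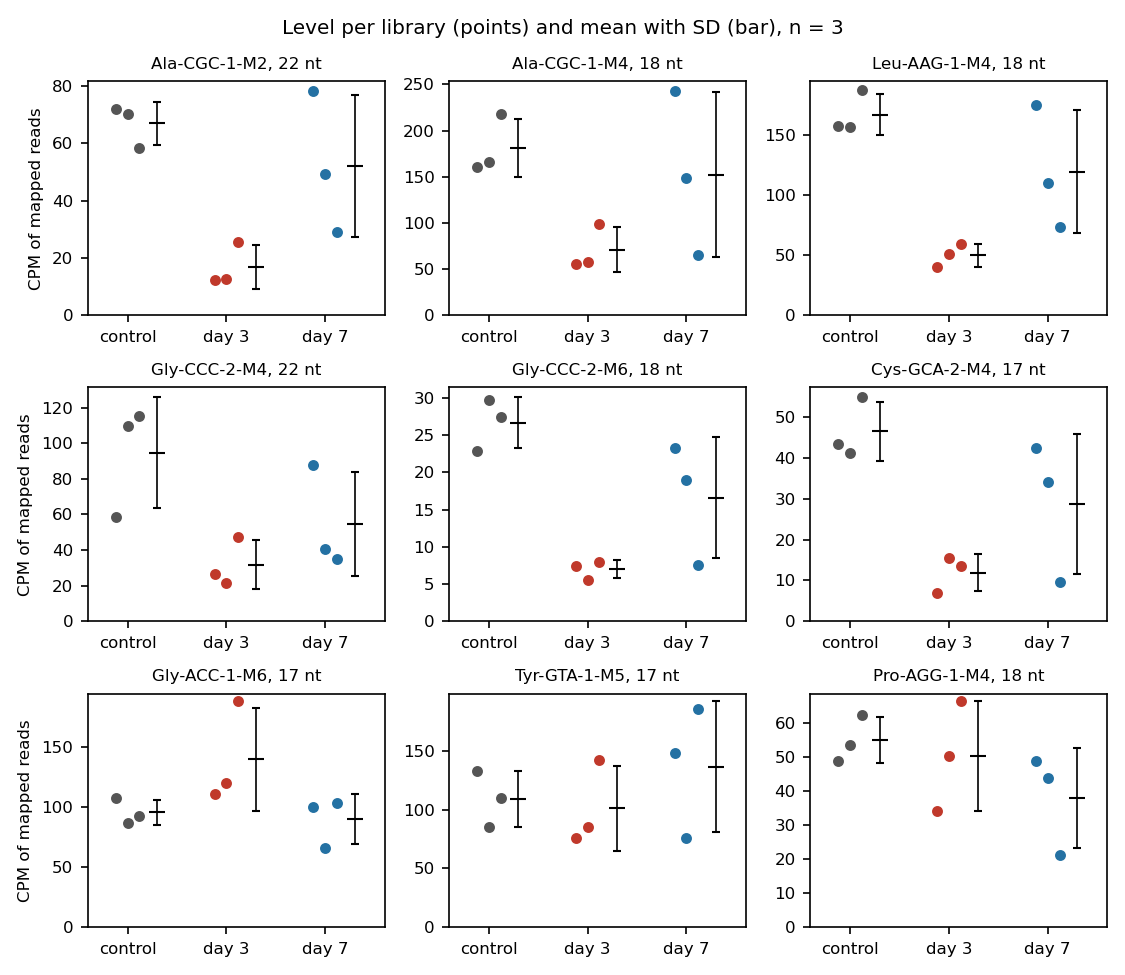
CPM of mapped reads (vertical axes, starting at 0) of 9 fragments in each control, day 3 and day 7 library (points), with the mean and SD of 3 libraries (bars). In the upper 6 panels every day 3 library lies below every control, while in the lower 3 panels (Gly-ACC-1-M6 and Tyr-GTA-1-M5, 17 nt, and Pro-AGG-1-M4, 18 nt) the test was not passed.

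Among the leucine and among the glutamine fragments, 1 each fell at day 3 and the others did not pass. Whether the forms of 1 amino acid differ from each other was not tested. The 18 nt tRF-68:85-Leu-AAG-1-M4, which matches Leu-AAG and Leu-TAG tRNAs, held 158, 157 and 187 CPM in the controls, with 40.3, 51.0 and 59.2 at day 3 and 175, 110.0 and 73.8 at day 7. All day 3 libraries lay below all others (day 3 log2 fold change -1.78 ± 0.35 SE, edgeR adjusted p = 0.0027). The 18 nt tRF-69:86-Leu-CAA-1-M5, which matches Leu-CAA and Leu-CAG tRNAs, held 102, 126 and 157 CPM in the controls, with 82.0, 73.9 and 107 at day 3 and 169, 92.6 and 59.3 at day 7. Its groups overlapped and it did not pass (-0.58 ± 0.35, edgeR adjusted p = 0.217). The capitals mark the bases that differ, which are T8C, T9G and A13C from Leu-CAA to Leu-AAG.
Leu-CAA-1-M5, 18 nt: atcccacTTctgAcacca
Leu-AAG-1-M4, 18 nt: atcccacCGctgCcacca
Within a library the Leu-AAG form held 154, 125 and 119.5% of the counts of the Leu-CAA form in the controls, with 49.1, 69 and 55.1% at day 3 and 104, 119 and 124% at day 7. These are 133 ± 18.9%, 57.7 ± 10.2% and 116 ± 10.6% (SD, n = 3), and day 3 overlapped neither other group. The 18 nt Leu-CAG-1-M3 form differs from Leu-CAA-1-M5 by T9C and gave a day 3 log2 fold change of -0.54 ± 0.41, which did not pass.

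The glutamine fragments of 17 nt differ by G10A, and those of 18 nt by G11A, from Gln-CTG-1-M7, which matches 7 Gln-CTG and Gln-TTG genes, to Gln-CTG-2, which matches 1 gene.
Gln-CTG-1-M7, 17 nt: tctcggtggGacctcca
Gln-CTG-2, 17 nt: tctcggtggAacctcca
The 17 nt tRF-59:75-Gln-CTG-2 held 72.7, 98.9 and 109 CPM in the controls, with 39.3, 43.5 and 42.7 at day 3 and 72.2, 63.6 and 55.9 at day 7. The day 3 libraries lay close together below all others (-1.19 ± 0.32, edgeR adjusted p = 0.0111; not passed without control replicate 3). The 17 nt Gln-CTG-1-M7 gave -0.68 ± 0.35 and its 18 nt form -0.10 ± 0.33, neither past the threshold. Within a library the 2 Gln-CTG-2 forms together held 220 ± 32.7% of the counts of the 2 Gln-CTG-1-M7 forms in the controls, with 139 ± 12.7% at day 3 and 199 ± 52.9% at day 7 (SD, n = 3). The day 3 libraries, at 141, 150 and 125%, lay below the controls, at 237, 182 and 240%. The leucine and the glutamine ratio do not depend on how libraries are scaled; both pairs were picked after their values were seen, so no test is given.

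The other fragments that fell at day 3 come from single-member groups. The 17 nt tRF-59:75-Cys-GCA-2-M4 held 43.3, 41.1 and 54.7 CPM in the controls, with 6.96, 15.4 and 13.4 at day 3 and 42.4, 34.0 and 9.66 at day 7. Day 3 lay below all controls, and 1 of 3 day 7 libraries fell within the day 3 range (-1.999 ± 0.42, edgeR adjusted p = 0.00337). The 18 nt tRF-58:75-Trp-CCA-1-M5 held 11.4, 26.3 and 19.5 CPM in the controls, with 5.96, 4.21 and 9.77 at day 3 and 19.9, 18.4 and 12.4 at day 7 (-1.56 ± 0.48, edgeR adjusted p = 0.023). Its day 3 libraries lay below all others, but it passed only without control replicate 1 and without day 3 replicate 3 among the 6 fits without 1 library. The 17 nt tRF-60:76-Phe-GAA-1-M3 had the most negative log2 fold change of the 33, -2.75 ± 0.68 (edgeR adjusted p = 0.0077), on 18, 16 and 48 counts in the controls and 7, 1 and 5 at day 3. In CPM it held 14.7, 9.14 and 22.3 in the controls, with 3.48, 0.468 and 3.05 at day 3 and 16.6, 5.02 and 8.28 at day 7; without control replicate 3 it did not pass. The 18 nt tRF-68:85-Ser-AGA-1-M3, with 25.3, 26.3 and 33.4 CPM in the controls, with 13.4, 7.95 and 18.3 at day 3 and 44.0, 25.7 and 10.3 at day 7, did not pass at day 3 (-1.15 ± 0.42, edgeR adjusted p = 0.0526).

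Fragments of tyrosine, proline, threonine and the shared Gly-ACC and Val end did not pass at day 3. The 17 nt tRF-60:76-Tyr-GTA-1-M5 held 132, 85.2 and 109.9 CPM in the controls, with 75.5, 85.6 and 142 at day 3 and 148, 75.9 and 186 at day 7, with overlapping groups (-0.18 ± 0.40, edgeR adjusted p = 0.741); scaled to the listed counts its value was 0.27, and without control replicate 1 it was 0.066. The 2 Tyr fragments of 18 nt differ in their first base, A1T from Tyr-GTA-1 to Tyr-GTA-2-M2. tRF-59:76-Tyr-GTA-2-M2 held 83.4, 75.4 and 94.2 CPM in the controls, with 44.7, 56.6 and 65.9 at day 3 and 92.2, 57.5 and 102 at day 7; its day 3 libraries lay below all controls, with a log2 fold change of -0.64 ± 0.35 (edgeR adjusted p = 0.162). tRF-59:76-Tyr-GTA-1 had the highest value of the 33 at day 3, 0.72 ± 0.42, with edgeR adjusted p = 0.2. The 17 nt tRF-61:77-Gly-ACC-1-M6 held 107, 86.3 and 92.8 CPM in the controls, with 110.3, 119.7 and 188 at day 3 and 99.7, 65.9 and 103 at day 7. Its day 3 libraries lay above all others, the single case among the 33 against the controls, without passing the test (0.49 ± 0.36, edgeR adjusted p = 0.301). The 2 Pro and 2 Thr fragments gave day 3 values from -0.21 to -0.14. Of fragments not yet named, the 18 nt Gly-ACC-1-M6 gave 0.19, the 17 nt Leu-AAG-1-M4 -0.96, the 17 nt Leu-CAA-1-M5 -0.40 and the 18 nt Gln-CTG-2 -0.91, none past the threshold. The fragments that fell had a median GC content of 64.2% and a median control level of 44.2 CPM, and the others 63.6% and 29.7 CPM.

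Summed by parent, the 5 Ala fragments held 337 ± 35.5 CPM in the controls, with 121 ± 44.5 at day 3 and 273 ± 157 at day 7 (SD, n = 3). The 5 Gly fragments held 207 ± 61.4, 73.0 ± 32.1 and 125 ± 66.5 CPM, and the 5 Leu fragments 367 ± 52.3, 186 ± 45.9 and 289 ± 144 CPM. For these amino acids the day 3 sums lay below all controls. The 4 Gln fragments held 267 ± 75.4, 155 ± 25.2 and 177 ± 39.3 CPM, with day 3 below all controls as well, though the nearest libraries of the groups lay close together. The Pro fragments held 83.9 ± 14.4 CPM in the controls and 76.5 ± 16.5 at day 3, and the 3 Tyr fragments 210.2 ± 30.6 and 185 ± 56.0, with overlapping groups. The 2 Gly-ACC fragments held 161 ± 26.8 CPM in the controls and 218 ± 76.5 at day 3, and their groups overlapped too. These sums carry no test.

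**Figure D3:**
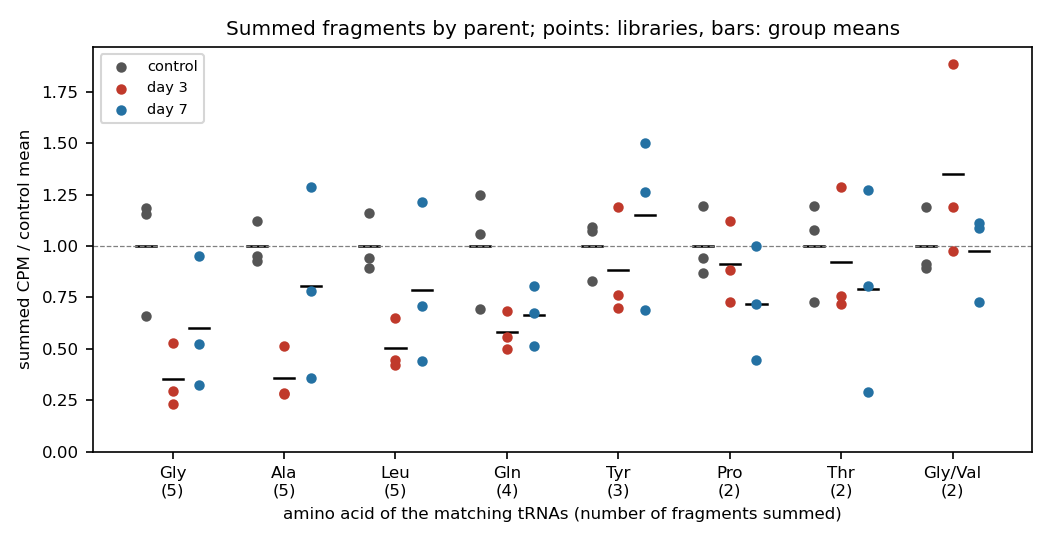
Summed CPM of the fragments that match tRNAs of an amino acid, divided by the control mean (vertical axis, starting at 0), for control, day 3 and day 7 libraries (points) with the group mean (bars); numbers in brackets are fragments summed. Day 3 means were 0.36 of control for Ala, 0.35 for Gly, 0.51 for Leu and 0.58 for Gln, against 0.91 for Pro and 1.35 for the end shared by Gly and Val.

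The 22 nt and the 17 to 18 nt forms were then set against each other within each library, where library scaling drops out. Summed, the 17 to 18 nt forms held 1559 ± 198 CPM in the controls, with 1015 ± 255 at day 3 and 1295 ± 411 at day 7, and the 22 nt forms 249 ± 53.6, 85.1 ± 40.02 and 160.3 ± 80.8 CPM (SD, n = 3). The 22 nt counts were 13.3, 19.4 and 15.3% of the 17 to 18 nt counts in the controls, with 7.80, 6.51 and 10.1% at day 3 and 14.2, 12.2 and 9.38% at day 7. Day 3 lay below all controls, and day 7 overlapped both groups. The 6 fragments of 22 nt come from Ala, Gly and Val tRNAs only, whereas the 17 to 18 nt forms include the Pro, Thr, Tyr and Gly-ACC ends that did not pass. Restricted to the 3 families that hold both lengths, 4 fragments of 22 nt against 5 shorter ones, the percentage was 56.9, 80.8 and 62.7 in the controls, with 53, 50.5 and 64.1 at day 3 and 49.5, 46.4 and 67.5 at day 7. In these families control and day 3 overlapped, so the separation over all 33 was not seen in their pooled counts. Sharing an end does not fully match the parents: the 22 nt Ala-CGC-1-M2 matches 2 genes and its shorter forms 4. The pooled percentage also mixes families of unequal abundance, which are given 1 by 1 below. This restriction was added after the values were seen.

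Family by family, the 22 nt Ala-CGC-1-M2 counts were 39.3, 36.4 and 23.2% of those of its own 17 and 18 nt forms in the controls, with 18.7, 18.4 and 21.9% at day 3 and 28.4, 29.5 and 38.9% at day 7. Day 3 lay below both other groups in this pair. Between control and day 3 the log2 ratio fell by 0.72 (exact permutation test, two-sided, p = 0.1, the smallest that 3 against 3 allows; adjusted p = 0.4 over 12 tests). The Ala-AGC-2 pair gave 44.9 ± 7.80% in the controls, with 45.4 ± 19.6% at day 3 and 40.4 ± 13.9% at day 7. The Gly-CCC-2-M4 counts were 146 ± 36.6, 154 ± 19.0 and 129 ± 31.7% of those of the 17 and 18 nt Gly-CCC-2-M6 forms (SD, n = 3), so in this family the 22 nt form was the more abundant length in most libraries. Gly-GCC-4, set against the same 17 and 18 nt forms, gave 20.3, 70.3 and 45.8% in the controls, with 55.0, 48.3 and 78.3% at day 3 and 15.8, 30.8 and 12.1% at day 7. Its day 7 libraries lay below its day 3 libraries (exact permutation p = 0.1, adjusted p = 0.4, n = 3 against 3). None of the 12 tests could pass the threshold in a design of this size.

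**Figure D4:**
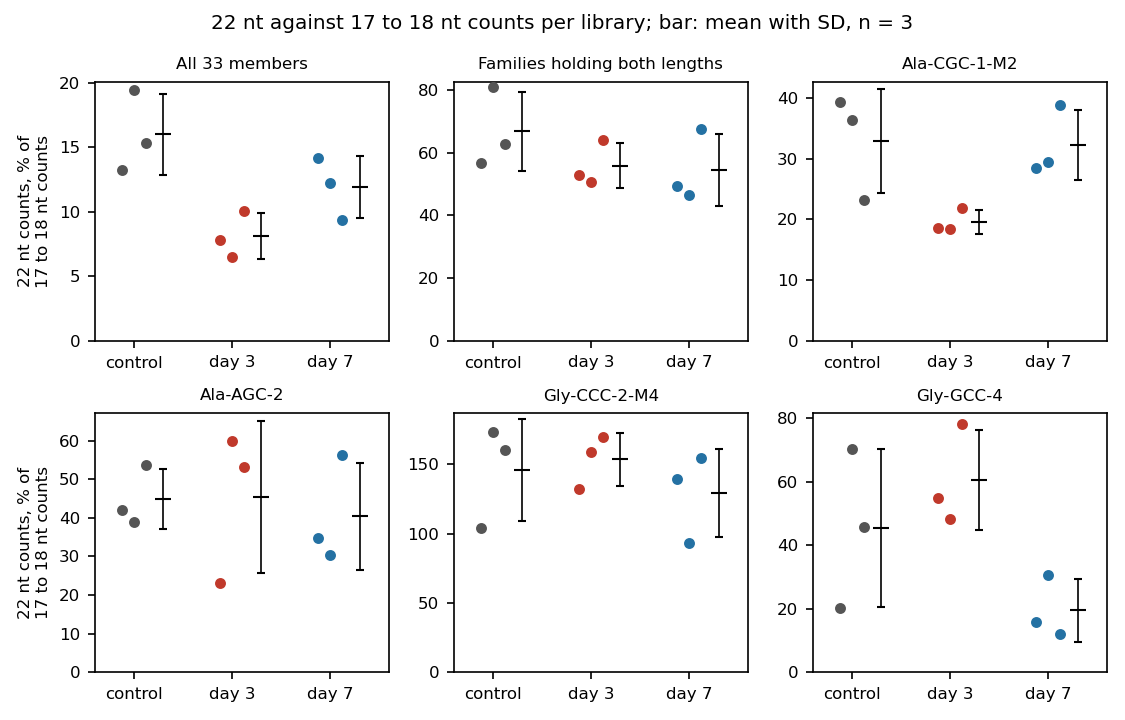
Counts of 22 nt fragments as a percentage of 17 to 18 nt counts in each library (points, vertical axes starting at 0) with mean and SD of 3 libraries (bars), over all 33 fragments, over the 3 families that hold both lengths, and for each of the 4 fragments of 22 nt in those families. Over all 33 the day 3 libraries, at 6.51 to 10.1%, lie below the controls, at 13.3 to 19.4%; in the families with both lengths the groups overlap.

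The 17 nt and 18 nt forms differ by 1 base at the cut. The 17 nt share of all 17 and 18 nt counts was 38.2, 35.9 and 35.9% in the controls, with 43.1, 41.6 and 42.9% at day 3 and 35.2, 35.9 and 45.1% at day 7. This pooled share includes ends listed in 1 of the 2 lengths only. It also depends on which families hold the counts, and the part of that mix was not tested. In the 10 families with both lengths the day 3 share lay above all controls in 2, Ala-CGC-1-M4 (13.3 ± 0.74% to 15.9 ± 0.45%) and Leu-AAG-1-M4 (13.1 ± 1.65% to 20.9 ± 2.38%), and below them in 1, Gln-CTG-1-M7 (57.4 ± 2.86% to 47.5 ± 0.26%, SD, n = 3). The 7 other families overlapped. The separations thus went both ways, and whether the share changed in any family was not tested. With 3 libraries against 3, a two-sided exact permutation test cannot give p below 0.1, even for groups that do not overlap. Between families the share in the controls ran from 11.1% for Leu-CAA-1-M5 to 59.7% for Thr-TGT-2-M2.

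At day 7, 0 of the 33 fragments passed the threshold against the controls, where 4% of all listed fragments did (3.5% higher and 0.5% lower). With DESeq2 and with limma-voom 0 passed as well, and 1 of the 33 had an unadjusted p below 0.05, Gly-GCC-4. Log2 fold changes ran from -1.45 to 0.64 with a median of -0.16, against 0.09 over all 200. In 3 fragments the day 7 libraries lay below all controls (22 nt Val-TAC-1, 17 nt Gln-CTG-2 and 18 nt Pro-AGG-1-M4), and in 0 above, where 12% and 9% of all listed fragments did so. Replicate 1 held 2012 CPM in the 33 fragments together, replicate 2 held 1266 and replicate 3 held 1086, against 1604 to 2058 in the controls and 879 to 1433 at day 3.

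Between day 3 and day 7, 14 of the 33 fragments were higher at day 7 and 0 lower. Over all 200 listed fragments 23% were higher and 11.5% lower, together 34.5%. This comparison uses the same day 3 libraries as that of day 3 with control, so it is no second measurement of the low day 3 values. Of the 14, 11 are among the 12 that were lower at day 3 than in the controls, the exception being the 22 nt Ala-AGC-2 (edgeR adjusted p = 0.0698). The others are the 22 nt Gly-TCC-1 (log2 fold change 1.43 ± 0.55), the 18 nt Ser-AGA-1-M3 (1.24 ± 0.43) and the 18 nt Tyr-GTA-2-M2 (0.92 ± 0.35). The largest values were 2.30 ± 0.71 for Phe-GAA-1-M3, on few counts, and 1.89 ± 0.38 for the 22 nt Ala-CGC-1-M2 (edgeR adjusted p = 0.00258). Outside the 33, 11 listed fragments were lower at day 3 than in the controls. All of these except tRF-1:31-iMet-CAT-1-M2 (edgeR adjusted p = 0.536) were higher at day 7 than at day 3. The overlap of these lists was thus not particular to the 33. The median was 0.92 over the 33 and 0.15 over all 200. Over the 25 other listed fragments of 16 to 22 nt it was 0.57, and 9 of those 25 were higher and 3 lower. The mitochondrial tRF-3a fragment chrM.Trp-TCA gave 2.21, and the mitochondrial His-GTG fragments of type tiRNA-3 gave 2.33, 1.69 and 2.06, all past the threshold.

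The rises depended on the scaling and on single libraries. The count of 14 became 6 without the TMM factors, 9 with another set of factors (RLE), 8 with DESeq2, and 4 when the fit held only the day 3 and day 7 groups. Scaled to the listed counts, 1 fragment passed as higher, the 22 nt Ala-CGC-1-M2, and 1 as lower. The median of all 200 then moved from 0.15 to -0.51 and that of the 33 from 0.92 to 0.19. Relative to all listed fragments the 33 lay 0.77 and 0.70 higher, a distance that rescaling by itself hardly changes. The count was 6 without day 3 replicate 1, 3 without day 3 replicate 2, 6 without day 7 replicate 1 and 6 without day 7 replicate 2. In every fit without 1 library, 2 fragments remained, the 22 nt Ala-CGC-1-M2 and the 18 nt Leu-AAG-1-M4. In CPM, every day 7 library lay above every day 3 library for 5 of the 33 (these 2, 17 nt Gln-CTG-2, 18 nt Trp-CCA-1-M5 and 17 nt Phe-GAA-1-M3), where 15% of all listed fragments did, and below for 1 (17 nt Gly-ACC-1-M6), where 21% did.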

How the data were processed

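The authors deposited raw counts of reads per fragment and library and, beside them, CPM (counts scaled to mapped reads), per the file headers. The submitters' processing notes name FastQC, Bowtie, edgeR and build mm10, with versions and roles not given in the sources used here. Per the labels' protocols, RNA was deacylated, freed of cyclic phosphates, phosphorylated at its 5' ends and demethylated at m1A and m3C before ligation, and libraries were selected by size on a gel, so lengths outside that window are under-represented. Count divided by CPM gave 1 mapped total per library, used as library size. The lowest maximum of a listed fragment over the 9 libraries was 20.1 CPM; fragments below that were not analysed here, and 7 empty lines of the table were skipped.

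The test was edgeR 4.0.16's quasi-likelihood F test, run under R 4.3.3 (TMM factors 0.749 to 1.14; filterByExpr removed 0 of 200 fragments; common biological coefficient of variation 34.9%), 1 mean per group over 9 libraries, Benjamini-Hochberg over 200 fragments, two-sided, threshold 0.05. Alternatives were DESeq2 1.42.0, limma-voom (limma 3.58.1), other scalings and filters, a replicate block, summed 3' ends and each library left out. The code was tested on simulated data. Sums over fragments have no test, and ratios of lengths were compared by exact permutation tests over 20 assignments.

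The members, lists and tests were chosen with earlier results of these data known. Named with all values were members past the threshold in any comparison, the 5 highest in the controls and every 22 nt form. Standard tRNA positions were counted back from the 3' end. Nuclear tRNA genes were not located in a genome here.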

Additional observations from a re-analysis of the deposited data

Results flagged for a closer look

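For 14 of the 33 fragments the change from the controls differed between day 3 and day 7, all 14 being higher at day 7; over all 200 listed fragments this was so for 34.5%, with 23% higher and 11.5% lower. Both changes share the controls, so their difference is the contrast of day 7 with day 3, tested with edgeR over all 200 fragments. The log2 fold changes of day 7 over day 3 were 1.89 for tRF-54:75-Ala-CGC-1-M2, 1.59 for tRF-58:75-Ala-AGC-2-M2 and 1.34 for tRF-58:75-Ala-CGC-1-M4. The glycine fragments gave 1.51 (tRF-57:74-Gly-CCC-2-M6), 1.24 (tRF-58:74-Gly-CCC-2-M6), 1.02 (tRF-53:74-Gly-CCC-2-M4) and 1.43 (tRF-54:75-Gly-TCC-1). The remaining values were 1.51 for tRF-68:85-Leu-AAG-1-M4, 1.52 for tRF-59:75-Cys-GCA-2-M4, 1.67 for tRF-58:75-Trp-CCA-1-M5, 2.30 for tRF-60:76-Phe-GAA-1-M3, 1.24 for tRF-68:85-Ser-AGA-1-M3, 0.92 for tRF-59:75-Gln-CTG-2 and 0.92 for tRF-59:76-Tyr-GTA-2-M2. Only tRF-54:75-Ala-CGC-1-M2 passed in every fit without 1 library and when scaled to the listed counts.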

How the results depend on the processing

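Where 12 of the 33 were lower at day 3 against control, 19 were lower with a fit of these 2 groups only, 2 of 5 tested with a mean of at least 100 CPM, 6 when scaled to the listed counts, and 6 to 18 with 1 library left out. For day 7 against day 3, where 14 were higher, 8 passed with DESeq2, 9 with RLE factors, 6 without TMM factors, 2 scaled to the listed counts (1 higher, 1 lower), 2 of 5 at 100 CPM, 4 with 2 groups only, 9 of 24 features with 3' ends summed, and 3 to 16 with 1 library left out. For day 7 against control 0 passed in every alternative run. Over all fragments, day 3 against control gave 43, 22 at 100 CPM (fewer tested), 67 with 2 groups only and 22 to 54 with 1 library left out; day 7 against control gave 8, 15 with DESeq2, 14 without TMM factors, 15 scaled to the listed counts and 3 to 17; day 7 against day 3 gave 69, 31 at 100 CPM and 39 to 72. Scaled to the listed counts, the split of calls was 49 higher and 14 lower at day 3 against control and 9 higher and 63 lower for day 7 against day 3.

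Signs turned for Tyr-GTA-1-M5 (17 nt, day 3 against control), 0.27 scaled to the listed counts and -0.46 (without day 3 replicate 3) to 0.066 (without control replicate 1) with 1 library left out; for Leu-CAA-1-M5 (18 nt, day 7 against day 3), -0.11 scaled to the listed counts; and for Gly-GCC-4 (day 7 against day 3), -0.89 (without day 7 replicate 2) to 0.28 (without day 3 replicate 3) with 1 library left out, and 0.13 without day 7 replicate 3. None of these passed. Scaled to the listed counts, day 3 sums over control were 0.85 for the 17 to 18 nt forms, 0.75 for Gln, 0.66 for Leu, 1.19 for Pro and 1.15 for Tyr. Without the most abundant fragment of each length the 22 nt percentage was 11.3, 5.44 and 8.94 (control, day 3, day 7), and the 33 made up 0.202% of the listed counts in the controls. Without fragments of more than 1 anticodon they made up 0.0819, 0.0676 and 0.0673% (control, day 3, day 7), against 0.238, 0.189 and 0.19% in full. The cause of these changes was not tested. By library, the share in full was 0.212, 0.232 and 0.272% in the controls. It was 0.142, 0.169 and 0.256% at day 3 and 0.267, 0.161 and 0.141% at day 7, so on this scale all groups overlapped. After each fragment's group mean was subtracted from its log2 CPM, the deviations of same-numbered libraries of different groups correlated over 0.1 in 2 of 9 cases. These correlations ran from -0.33 to 0.33, and those of differently numbered libraries from -0.29 to 0.22. Such overlapping values cannot decide whether the numbers mark pairs, and numbers were not used as a pairing. With a replicate block, day 3 against control gave 47 fragments, 12 of the 33, and day 7 against day 3 gave 64, 12 of the 33. Low counts limit Phe-GAA-1-M3, Ala-AGC-2 and Trp-CCA-1-M5 most among the fragments that fell.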
